A study of Sus scrofa with 6 samples.

Results

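The mitochondrial genome of the pig encodes 7 membrane subunits of complex I (ND1, ND2, ND3, ND4, ND4L, ND5 and ND6) and the 3 core subunits of complex IV (COX1, COX2 and COX3). The RNA levels of these 10 genes were compared between longissimus thoracis (LT) and semitendinosus (ST) muscles of Min pigs, an indigenous Chinese breed. The genes were chosen by symbol among the transcripts of chromosome MT, and they are 10 of 25973 protein-coding genes and unannotated mRNA loci listed, and 10 of 13 protein-coding genes of chromosome MT. There were 6 libraries, 3 of LT and 3 of ST, all from wild-type Min pigs of 210 days. The study took both muscles from each of 3 pigs, and replicate numbers stand for pigs in both groups. No group was treated, and muscle was the only factor that differed between the groups. The RNA was depleted of rRNA, not selected by poly(A), and levels are in FPKM as deposited, that is, fragments divided by transcript length and by the mapped total of the library. The files hold no read counts, so the depth behind single values is unknown and no counting interval was computed.

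Complex I passes electrons from NADH to ubiquinone, and complex IV, cytochrome c oxidase, passes them from cytochrome c to oxygen. Both pump protons across the inner mitochondrial membrane, and both are built from subunits of the mitochondrial and the nuclear genome. The mitochondrial genome is transcribed from both strands into long precursors, from which the single mRNAs are cut, mostly at the tRNAs that lie between them. Muscle fibres that work by oxidation hold more mitochondria than glycolytic fibres.

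Of the 10 genes, 9 (all but ND6) had higher FPKM in every ST library than in any LT library, with means 1.78 to 2.25 times those of LT. Of all 19672 genes tested, 16.6% had such a pattern. The log2 fold changes of the 10 genes were between 0.57 and 1.18, with a median of 0.93, against a median of 0.13 over all genes tested and of 0.07 over the 392 genes with mean FPKM above 100. The ST to LT difference was also positive in all 3 pigs for 9 of the 10, as it was for 32.0% of all genes. A gene was called where limma on log2(FPKM + 0.1), with p-values adjusted over all genes, gave an adjusted p below 0.05 together with a log2 fold change above 1 or below -1. Of the 10 genes 0 were called, against 0.574% of all genes in either direction and 0.412% higher in ST. Of the 10 genes 4 (ND3 and the 3 COX genes) had a log2 fold change above 1, against 5.61% of all genes. At an unadjusted p under 0.05, 8 of the 10 were higher in ST, where 13.0% of all genes were. With the pig as a block in the same model, 4 of the 10 (ND1, ND2, ND3 and ND5) had an adjusted p under 0.05, against 3.87% of all genes, and ND3 alone received the call, against 2.84% of all genes called higher in ST. The replicate block moved the number of all genes called higher in ST from 81 to 558. With FPKM also rescaled to nuclear transcripts, an alternative chosen after seeing the data, 5 of the 10 (ND2, ND3, ND4, ND4L and ND5) were called, against 4.71% of all genes called higher in ST, and 6 (these and ND1) had an adjusted p under 0.05, against 7.09%. Apart from ND6, the relative levels of these genes within the mitochondrial RNA of a library were more alike between the muscles, as described after the single genes.

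**Figure D1:**
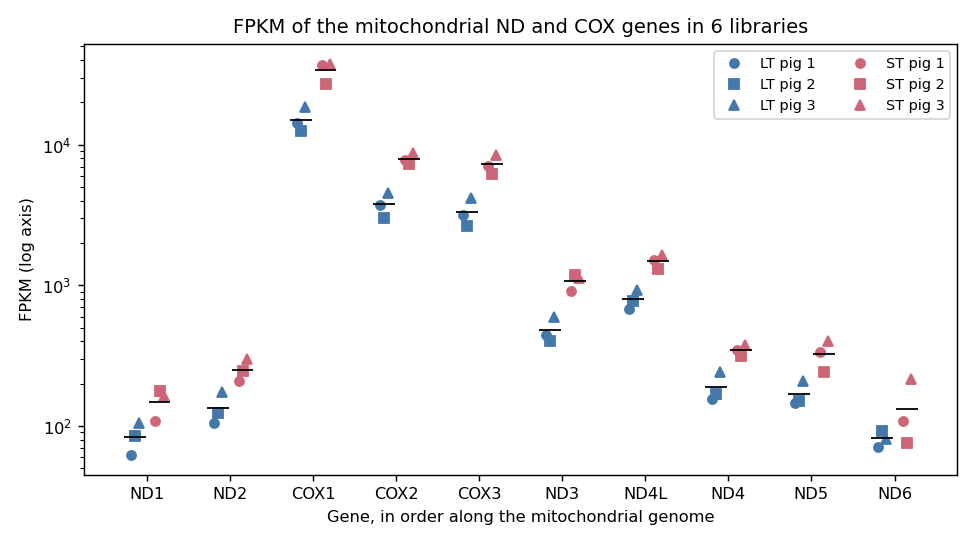
FPKM (log axis) of the 10 genes in each library, with the genes in their order along the mitochondrial genome, LT in blue and ST in red, 1 symbol per pig, and black lines at the means of 3 libraries. ST points lie above all LT points of the same gene for 9 genes, and ND6 is the exception.

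The 10 genes occupy single exons, and all 13 protein-coding genes of chromosome MT had the same coordinates in the files as in the RefSeq annotation of Sscrofa11.1, the build of the files. From the start of the sequence they are ND1 (ENSSSCG00000018065, positions 3922 to 4876), ND2 (ENSSSCG00000018069, positions 5087 to 6128), COX1 (ENSSSCG00000018075, positions 6511 to 8055), COX2 (ENSSSCG00000018078, positions 8203 to 8890), COX3 (ENSSSCG00000018082, positions 9800 to 10583), ND3 (ENSSSCG00000018084, positions 10653 to 10998), ND4L (ENSSSCG00000018086, positions 11069 to 11365), ND4 (ENSSSCG00000018087, positions 11359 to 12736), ND5 (ENSSSCG00000018091, positions 12935 to 14755) and ND6 (ENSSSCG00000018092, positions 14739 to 15266). ND6 is the only one of them on the minus strand. ND4L and ND4 share 7 bases on the same strand, and in mammals they are read from a shared mRNA. ND5 and ND6 share 17 bases on opposite strands, and COX3 shares 1 base with ATP6. The lengths range from 297 bases for ND4L to 1821 bases for ND5, so levels of different genes were compared per length, as FPKM.

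COX1, COX2 and COX3 form the catalytic core of complex IV. COX1 carries the site where oxygen is reduced, and it had the highest FPKM of the 10 genes in every library. COX1 had FPKM of 14267, 12523 and 18463 in LT (15085 ± 3053, SD, n = 3) and of 36846, 27049 and 37768 in ST (33888 ± 5940.5, SD, n = 3). Among all genes of a library it held rank 3 in LT replicates 1 and 2 and rank 1 in LT replicate 3 and in all ST libraries. The comparison gave a log2 fold change of 1.17 (SE 0.52) and an adjusted p of 0.273, and within the pigs ST exceeded LT by 1.37, 1.11 and 1.03 on the log2 scale in pigs 1, 2 and 3. The variance trend of the model gave COX1 the widest standard error (SE) of the 10 genes, although its 3 pigs differed by an SD of 0.18. Quantile normalization, which equalizes the distributions of the libraries, lowered its log2 fold change to 0.64 with an adjusted p of 0.592, in a range of 0.0582 to 0.774 over the alternatives tried.

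COX2 holds the copper centre that receives electrons from cytochrome c. COX2 had FPKM of 3723, 3027 and 4557 in LT (3769 ± 766, SD, n = 3) and of 7842, 7274 and 8683 in ST (7933 ± 708, SD, n = 3). The ST libraries did not overlap with the LT libraries, and COX2 held rank 4 among all genes in the 3 ST libraries. It had a log2 fold change of 1.09 (SE 0.37) and an adjusted p of 0.171 and within-pig differences of 1.07, 1.27 and 0.93. COX3 is a core subunit without a redox centre. COX3 had FPKM of 3151, 2644 and 4177 in LT (3324 ± 781, SD, n = 3) and of 7092, 6146 and 8509 in ST (7249 ± 1189, SD, n = 3). Its ST libraries were also above all LT libraries, with a log2 fold change of 1.14 (SE 0.37) and an adjusted p of 0.164. The within-pig differences of COX3, 1.17, 1.22 and 1.03, had the smallest spread of the 10 genes (SD 0.10).

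Of the complex I subunits, ND1 lies where the membrane part of the complex meets the ubiquinone site. ND1 had FPKM of 61.9, 84.5 and 105 in LT (83.7 ± 21.4, SD, n = 3) and of 108, 177 and 163 in ST (149 ± 36.2, SD, n = 3). LT replicate 3, the highest of LT, was close to ST replicate 1, the lowest of ST. The comparison gave a log2 fold change of 0.83 (SE 0.27) and an adjusted p of 0.163, and the adjusted p was 0.0472 with the pig as a block, in a range of 0.0290 to 0.368 over the alternatives.

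ND2, ND4 and ND5 are the large subunits that resemble ion antiporters and pump protons. ND2 had FPKM of 105, 124 and 174 in LT (134 ± 35.8, SD, n = 3) and of 209, 248 and 299 in ST (252 ± 45.1, SD, n = 3). ND2 had a log2 fold change of 0.93 (SE 0.25) and an adjusted p of 0.117, and its adjusted p with the pig as a block, 0.0390, was the lowest of the 10 genes and lay in a range of 0.0230 to 0.313 over the alternatives. ND4 had FPKM of 155, 169.6 and 240.3 in LT (188 ± 45.8, SD, n = 3) and of 347, 316 and 374 in ST (346 ± 29.0, SD, n = 3). The ND4 values of the 3 ST libraries were close to each other and all above LT, with a log2 fold change of 0.90 (SE 0.23) and an adjusted p of 0.105, and with the pig as a block the adjusted p was 0.0528, in a range of 0.0314 to 0.308 over the alternatives. ND5 had FPKM of 146, 151 and 208 in LT (168 ± 34.8, SD, n = 3) and of 335, 241 and 399 in ST (325 ± 79.6, SD, n = 3). In ND5, ST replicate 2 was the lowest of ST and LT replicate 3 the highest of LT, and they did not overlap. ND5 had a log2 fold change of 0.94 (SE 0.26) and an adjusted p of 0.120, which became 0.0472 with the pig as a block, in a range of 0.0258 to 0.330 over the alternatives.

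ND3, ND4L and ND6 are small membrane subunits between the ubiquinone site and the pumping subunits. ND3 had FPKM of 446, 404 and 591 in LT (480.4 ± 98.1, SD, n = 3) and of 912, 1194 and 1131 in ST (1079 ± 148, SD, n = 3). All ST libraries were above LT, and ND3 had the largest log2 fold change of the 10 genes, 1.18 (SE 0.26, adjusted p of 0.0765). With the pig as a block, ND3 had an adjusted p of 0.0460 and was called higher in ST, and the adjusted p ranged from 0.0258 to 0.273 over the alternatives. Pig 2 had the largest within-pig difference of ND3, 1.56, while pigs 1 and 3 had 1.03 and 0.94. ND4L had FPKM of 683, 773 and 926 in LT (794 ± 123, SD, n = 3) and of 1522, 1302 and 1641 in ST (1489 ± 172, SD, n = 3). ND4L thus had the highest FPKM of the 7 ND genes in every library but a lower fold change than ND3, with a log2 fold change of 0.91 (SE 0.26) and an adjusted p of 0.128.

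ND6, the gene on the minus strand, differed from the other 9. ND6 had FPKM of 71.1, 92.8 and 80.7 in LT (81.5 ± 10.9, SD, n = 3) and of 108, 75.1 and 215 in ST (133 ± 73.0, SD, n = 3). ST replicate 2 lay within the range of LT, and ST replicate 3 was far above the other 5 libraries. ND6 had a log2 fold change of 0.57 (SE 0.36) and an adjusted p of 0.436. The within-pig differences were 0.60, -0.31 and 1.41, so pig 2 had less ND6 RNA in ST than in LT. Without ST replicate 3 the log2 fold change was 0.15, and without ST replicate 2 it was 0.91. The coefficient of variation of ND6 in ST was 55.0%, the highest of the 10 genes, and in LT it was 13.3%, the lowest. The strand setting of the counting is not given in the sources used here, so whether its FPKM holds fragments of the opposite strand was not tested.

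**Figure D2:**
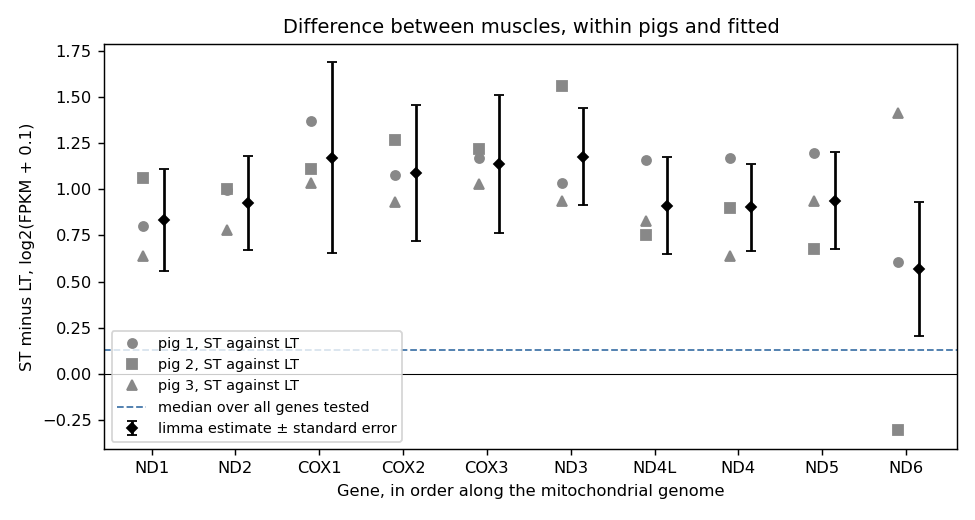
Difference of ST minus LT on the scale of log2(FPKM + 0.1), for each pig (grey symbols) and as estimated by limma over 3 against 3 libraries (black diamonds, bars of 1 standard error), with the dashed line at the median of all genes tested. All points except ND6 of pig 2 are above 0.

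The order of the genes by mean FPKM was COX1, COX2, COX3, ND4L, ND3, ND4, ND5, ND2, ND1 and ND6 in both muscles. COX1 was 4.0 times the mean of COX2 in LT and 4.27 times in ST. COX2 and COX3 had overlapping ranges in both muscles, although COX2 was higher in all 3 libraries of each. The step from the COX genes to the ND genes was 4.19-fold in LT and 4.87-fold in ST, between COX3 and ND4L, without overlap. ND4L and ND3 did not overlap, nor did ND3 and ND4. The ranges of neighbours overlapped for ND4 and ND5 and for ND5 and ND2 in both muscles, and for ND2 and ND1 in LT. ND1 and ND6 could not be ordered, since ND1 was the higher in 1 of 3 libraries of each muscle. The ratio of COX1 to ND1 was 230.3, 148 and 176 in LT against 341, 153 and 232 in ST, with overlap. The ratio of ND4L to ND4, the neighbours on the shared mRNA, was 4.42, 4.56 and 3.85 in LT against 4.38, 4.12 and 4.38 in ST. Genes read from a shared mRNA thus had unlike FPKM, and the cause was not tested. The order and the ratios above are therefore of FPKM and need not be those of mRNA molecules.

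The highest library of a muscle was mostly the same across genes, while the lowest varied more. LT replicate 3 was the highest of LT for 9 of the 10 genes, with ND6 as the exception, and ST replicate 3 was the highest of ST for 8. The lowest of LT was replicate 1 for 6 genes and replicate 2 for 4 (ND3 and the COX genes). ST replicate 2 was the lowest of ST for 7 genes and the highest for ND1 and ND3. The coefficient of variation was between 13.3% and 26.7% in LT and between 8.37% and 55.0% in ST.

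Summed, the 10 genes had FPKM of 22808, 19991 and 29522 in LT (24107 ± 4896, SD, n = 3) and of 55321, 44023 and 59183 in ST (52842 ± 7878, SD, n = 3). They made up 6.19 ± 1.42% of the FPKM of all transcripts in LT and 13.4 ± 1.58% in ST (SD, n = 3). FPKM gives weight to short transcripts, and by FPKM times length, which follows the number of fragments, the shares were 3.38 ± 0.665% and 7.36 ± 1.21%. No LT library overlapped with an ST library in these sums. The 3 COX genes summed to 2.21 times and the 7 ND genes to 1.95 times the LT mean in ST, and the ratio of the COX sum to the ND sum was 12.7, 10.1 and 11.7 in LT against 14.6, 11.4 and 13.0 in ST, with overlapping ranges. As these are bulk samples, more cells or fibres of a type and more RNA per cell cannot be told apart.

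Within the mitochondrial RNA, the composition differed little. COX1 took 59.8, 59.9 and 59.9% of the FPKM of all MT transcripts in LT, an almost constant share, and 64.2, 59.2 and 61.4% in ST. The shares overlapped, with a difference of 1.75 percentage points (p = 0.4, 2-sided exact permutation test). Without ST replicate 1 the difference was 0.472 points, and without ST replicate 2 it was 2.94 points. COX2 had mean shares of 15.0 ± 0.580% in LT and 14.6 ± 1.20% in ST, and COX3 had 13.1 ± 0.448% and 13.2 ± 0.776% (SD, n = 3). Together the 3 COX genes took 88.60, 87.08 and 88.17% in LT against 90.17, 88.62 and 89.41% in ST. Only a narrow gap lay between the highest LT and the lowest ST library, and in each pig the share was the higher in ST.

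The 7 ND genes together took 6.99, 8.61 and 7.54% in LT and 6.17, 7.78 and 6.87% in ST, with overlapping ranges but a lower share in ST in each of the 3 pigs. ND4L had shares of 2.86, 3.70 and 3.0% in LT and 2.65, 2.85 and 2.67% in ST. It was the only one of the 10 genes whose shares did not overlap, and the exact permutation test gave p = 0.1, the smallest p that 3 against 3 libraries allow. By FPKM times length, its shares overlapped (p = 0.2, exact permutation test). ND1, ND2, ND4, ND4L and ND5 had lower shares in ST in all 3 pigs, with mean differences of -0.0545, -0.0670, -0.111, -0.463 and -0.0826 percentage points (ST minus LT). The SEs of the paired differences were 0.0183, 0.00911, 0.0369, 0.194 and 0.0554 in the same order. The permutation tests did not use the pairing. The mean differences kept their sign when 1 library was left out. They moved from -0.00866 to -0.108 for ND1 (without ST replicates 1 and 2) and from -0.0168 to -0.113 for ND2 (without ST replicate 1 and LT replicate 1). They moved from -0.207 to -0.625 for ND4L (without LT replicates 2 and 1) and from -0.0530 to -0.114 for ND5 (without ST replicates 2 and 3). ND3 differed from them through ST replicate 2, where its share was 2.61%, against 1.59% and 1.84% in the other ST libraries and 1.87% to 1.93% in LT. ND6 took 0.298, 0.444 and 0.262% in LT and 0.188, 0.164 and 0.349% in ST.

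**Figure D3:**
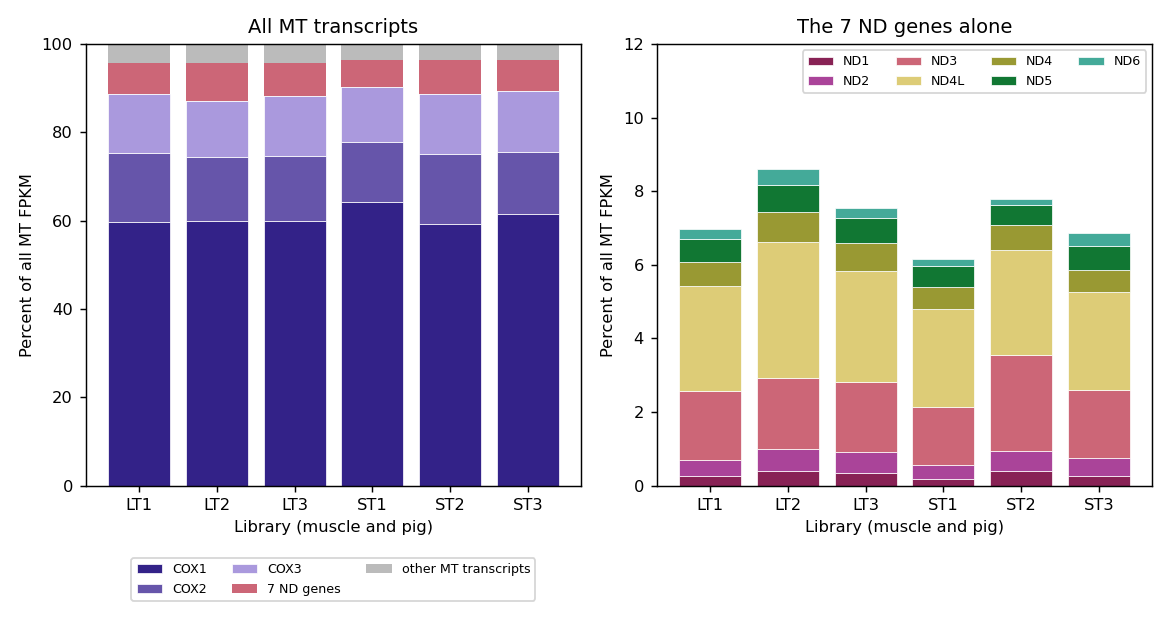
Percent of the FPKM of all MT transcripts in each library taken by COX1, COX2, COX3, the 7 ND genes and all other MT transcripts (left), and by each ND gene (right, axis ending at 12%). COX1 takes between 59.2% and 64.2% in every library, and ND4L is the largest ND share.

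When the MT FPKM of every library was set equal before the limma comparison, 0 of the 10 genes had an adjusted p under 0.05 and 0 had an unadjusted p under 0.05. The 10 genes made up on average 95.7% of the MT FPKM in LT and 96.3% in ST, so this scaling largely fixed their summed level. It shows only how they differed relative to each other. In that scaling the median of all genes moved to -0.84 on the log2 scale, and 51.4% and 59.0% of all genes passed those thresholds. Most of those genes were lower in ST through the scaling, so these percentages are no background for the 10 genes. The log2 fold changes of the 10 genes were between -0.56 for ND6 (SE 0.34) and 0.05 for ND3 (SE 0.29), and COX1 had 0.04 (SE 0.50).

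The other protein-coding genes of chromosome MT, ATP6 and ATP8 of the ATP synthase and CYTB of complex III, were also higher in every ST library than in any LT library. ATP6 had FPKM of 380.4, 319 and 432 in LT (377 ± 56.3, SD, n = 3) and of 794, 619.9 and 908 in ST (774 ± 145, SD, n = 3). ATP8 had FPKM of 50.9, 47.2 and 86.7 in LT (61.6 ± 21.9, SD, n = 3) and of 129, 125 and 155 in ST (136 ± 16.2, SD, n = 3). Their log2 fold changes, 1.03 (SE 0.25, adjusted p = 0.0944) and 1.19 (SE 0.26, adjusted p = 0.0758), lay on either side of those of the COX genes, and both were called higher in ST with the pig as a block (adjusted p = 0.0431 and 0.0289, within 0.0234 to 0.302 and 0.0171 to 0.248 over the alternatives). CYTB had FPKM of 582, 489 and 772 in LT (614 ± 144, SD, n = 3) and of 1130.4, 826 and 1179.8 in ST (1045 ± 192, SD, n = 3). CYTB had a log2 fold change of 0.78, and it took 2.44, 2.34 and 2.50% of the MT FPKM in LT against 1.97, 1.81 and 1.92% in ST, without overlap (p = 0.1, exact permutation test). The 12 unannotated lncRNAs of chromosome MT had summed FPKM of 39.8, 45.1 and 34.5 in LT and 53.3, 75.2 and 43.3 in ST, with overlap.

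The nuclear partners of the 10 genes were examined as lists. Of 37 nuclear complex I subunits, 34 were found and tested, of which 0 were called and 18 were higher in ST at an unadjusted p under 0.05, against 13.0% of all genes. Their median log2 fold change was 0.59, and 31 of 34 were above 0. NDUFB6, an accessory subunit of the membrane arm, had FPKM of 8.38, 8.08 and 8.06 in LT and 15.5, 14.4 and 16.6 in ST, with a log2 fold change of 0.91 (SE 0.16) and an adjusted p of 0.0553. NDUFV1, which binds NADH and FMN, had 41.9, 41.5 and 36.1 in LT and 78.6, 65.7 and 85.8 in ST, with a log2 fold change of 0.94 (SE 0.18) and an adjusted p of 0.0650. Both were named for the smallest p of the list, which favours a small spread. Their ST values were above all LT values, as were those of 18 of the 34 genes in total, against 16.6% of all genes. With the pig as a block, 6 of the 34 had an adjusted p under 0.05, against 3.87% of all genes higher in ST. With the block 1 of the 34, NDUFS7, was called, against 2.84% of all genes called higher in ST. NDUFS7 was named after its value was seen.

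Of 16 nuclear complex IV subunits, 13 were found, of which 0 were called. At an unadjusted p under 0.05, 7 were higher in ST, against 13.0% of all genes. Their median log2 fold change was 0.63, and 12 of 13 were above 0. NDUFA4, once assigned to complex I and now to complex IV, had FPKM of 630.0, 646 and 518 in LT and 1572, 1219.7 and 1451 in ST, with a log2 fold change of 1.24 (SE 0.25) and an adjusted p of 0.0684. COX5A, which lies next to COX1 on the matrix side, had 104, 94.3 and 87.7 in LT and 168, 161 and 195 in ST, with a log2 fold change of 0.87 (SE 0.18) and an adjusted p of 0.0733. Both were named for the smallest p of the list, and with the pig as a block NDUFA4 was called. Both were higher in every ST library than in any LT library, as were 5 of the 13 genes in total, against 16.6% of all genes. COX4I1, a ubiquitous subunit named after its values were seen, was listed at 50.6, 0.205 and 0.948 in LT and 206, 0.755 and 155 in ST. LT replicates 2 and 3 and ST replicate 2 were near 0, and its log2 fold change of 3.57 had a standard error of 2.41.

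The genes for the expression and upkeep of mitochondrial DNA, such as polymerases, transcription factors, RNases and RNA-binding proteins, were all 30 found. Of these 0 were called, and the median log2 fold change was 0.21. At an unadjusted p under 0.05, 2 of the 30 were higher in ST, against 13.0% of all genes. TFAM, which packages mitochondrial DNA and starts its transcription, and POLRMT, the mitochondrial RNA polymerase, had log2 fold changes of 0.12 (SE 0.16) and 0.30 (SE 0.18), and both were named for their role after their values were seen. HSD17B10, a subunit of the RNase that cuts the precursors at the tRNAs, had FPKM of 38.2, 39.9 and 35.9 in LT and 68.6, 46.6 and 81.2 in ST, with a log2 fold change of 0.75 (SE 0.23) and an adjusted p of 0.142. TEFM, the elongation factor of that polymerase, had 2.06, 2.09 and 2.62 in LT and 3.78, 2.64 and 3.93 in ST, with a log2 fold change of 0.58 (SE 0.22) and an adjusted p of 0.218. Of the 9 genes of mitochondrial content outside the respiratory chain, 6 were higher in ST at an unadjusted p under 0.05, against 13.0% of all genes. Of the 9, 0 were called, and the median log2 fold change was 0.63. CS, citrate synthase, had 71.8, 73.4 and 65.6 in LT and 118, 105 and 151 in ST, with a log2 fold change of 0.81 (SE 0.20) and an adjusted p of 0.0935, and CYCS, cytochrome c, had 113, 114 and 76.7 in LT and 179, 171 and 200.4 in ST, with a log2 fold change of 0.87 (SE 0.22) and an adjusted p of 0.0997.

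**Figure D4:**
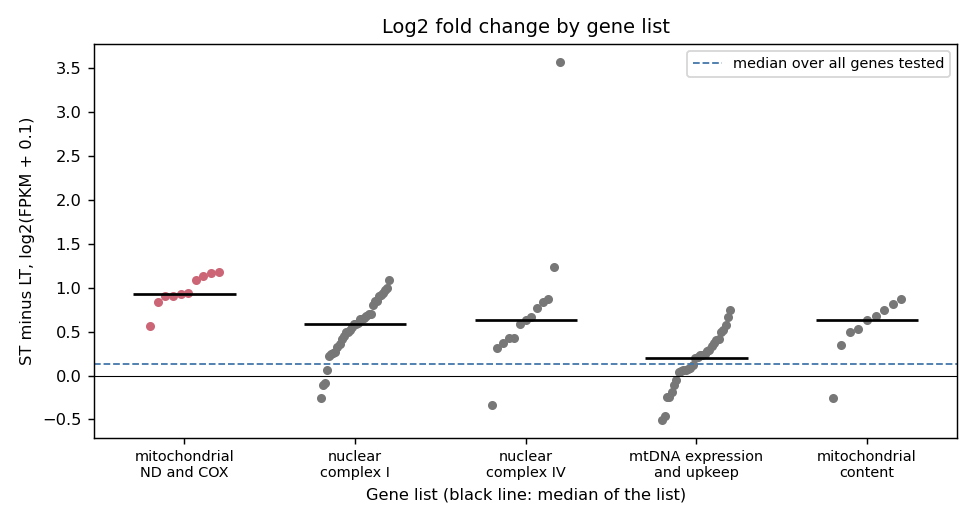
Log2 fold change of ST minus LT, on the scale of log2(FPKM + 0.1), for each of the 10 genes and each gene of the 4 nuclear lists, with black lines at the list medians (0.93, 0.59, 0.63, 0.21 and 0.63 from left to right) and a dashed line at the median of all genes tested. The isolated point of the nuclear complex IV list is COX4I1.

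Markers of fibre types also differed between the muscles, and ST replicate 2 stood apart in them. The 7 slow-fibre genes, which include MYH7, TNNI1 and MYL2, had summed FPKM of 6859.9, 4499.8 and 5269 in LT and 37278, 6059.6 and 37540.5 in ST, so the sum of ST replicate 2 lay within the range of LT. Of the 7 genes, 3 (TNNC1, TNNI1 and MYL2) were within the LT range in that library, and 4 (MYH7, TNNT1, MYL3 and ATP2A2) were above every LT library, with FPKM of 72.3, 382, 465 and 317 against LT maxima of 61.3, 348, 293 and 252. At an unadjusted p under 0.05, 7 of 7 were higher in ST, against 13.0% of all genes. In the main model 0 were called. With the pig as a block 4 (the same 4 genes) were called higher in ST, against 2.84% of all genes. MYH7, the slow myosin, was matched by position. The 4 fast-fibre genes found of 8 (TNNT3, TNNC2, TNNI2 and ATP2A1) had 26488, 27029.8 and 20314 in LT and 4291, 18179.7 and 1058 in ST. MYH1, MYH2, MYH4 and MYLPF were not found. All 4 found genes had a log2 fold change below 0, and 0 were called. In ST replicate 2, TNNT3, TNNC2 and TNNI2 were below every LT library. ATP2A1 went the other way there, with FPKM of 1499 against an LT maximum of 1446. In ST replicate 2 the 10 mitochondrial genes summed to 44023, above all LT libraries, and 9 of the 10 were above LT in that library. Without ST replicate 2, 3 of the 10 (ND3, ND4L and ND5) were called higher in ST, against 3.31% of all genes, while 10 of 10 had an unadjusted p under 0.05, against 17.2%.

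**Figure D5:**
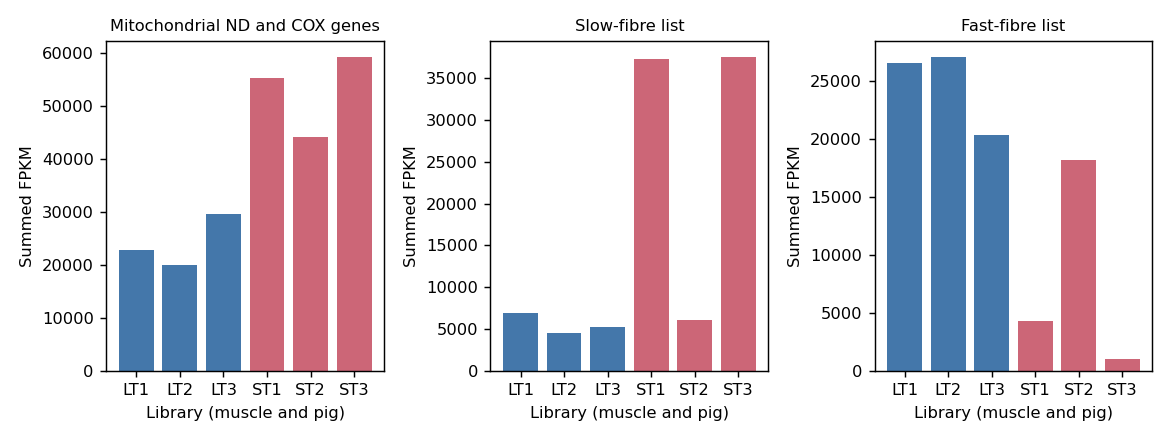
Summed FPKM in each library of the 10 mitochondrial genes, of the 7 slow-fibre genes and of the 4 fast-fibre genes found, LT in blue and ST in red. ST replicate 2 stands with the LT libraries for the sum of the slow-fibre genes and above them for the mitochondrial genes.

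Genes that define skeletal muscle were high in both groups. Of 7 skeletal muscle genes 6 were found, with summed FPKM of 7794 to 8414 in LT and 8854 to 11701 in ST. Of the 6, 4 had a log2 fold change above 0, and 1, MYBPC1, was called higher in ST, against 0.412% of all genes. PYGM went the other way, with a log2 fold change of -1.36 (SE 0.41). It was called lower in ST with the pig as a block, as were 241 of all 19672 genes. Markers of other cell types had lower sums. The sums of the endothelial, smooth muscle, leukocyte and cardiac lists were higher in ST without overlap. The 5 endothelial genes summed to 47.8 to 72.1 in LT and 114 to 166 in ST. Of these, 2 (PECAM1 and CDH5) were called higher in ST, against 0.412% of all genes. PECAM1 made up most of this sum. VWF, matched by position and with FPKM of only 0.695 to 1.36, had a log2 fold change of 0.26 (SE 0.28). The 4 smooth muscle genes summed to 39.5 to 46.2 in LT and 59.1 to 81.1 in ST, and 3 of them had a log2 fold change above 0, while LMOD1 had -0.22. Adipocyte genes (5 of 5 found) summed to 65.2 to 180.1 in LT and 47.3 to 148 in ST, with overlap. All 5 had a log2 fold change below 0, from -1.11 to -0.33 with a median of -0.92, and 0 were called. Fibroblast genes (5 of 5) summed to 571 to 1177 in LT and 610.4 to 1111 in ST, with overlap. Red blood cell genes (3 of 6) summed to 672 to 1046 in LT and 573 to 1013 in ST, also with overlap. Leukocyte genes (5 of 5, LYZ at 0) summed to 5.28 to 5.61 in LT and 6.09 to 8.76 in ST, and Schwann cell genes (3 of 4) to 7.56 to 30.7 and 2.76 to 14.6. Of the cardiac list, NPPB was at 0 in every library and MYH6, whose sequence is close to that of the slow myosin MYH7, had FPKM of 614, 529.6 and 696 in LT against 3582, 1014 and 4682 in ST. The part of these cell types in the values of the 10 genes was not tested.

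Across the 6 libraries, the nuclear genes whose pattern was nearest to the mean pattern of the 10 genes were sought among 2917 genes with mean FPKM above 10, by the root mean square distance between centred log2 values. They were DENND5A (0.0751), IL13RA1 (0.114), GSTK1 (0.116), PRKCQ (0.117) and HERC6 (0.118). DENND5A had FPKM of 10.4, 9.48 and 12.8 in LT against 19.9, 17.4 and 25.3 in ST. The 10 genes themselves lay at distances from 0.0856 for ND4L to 0.417 for ND6. The named nuclear genes were picked as the nearest of 2917, so small distances were built into the choice. Their distances therefore cannot be weighed against those of the 10 genes, which were not picked by distance. With 6 libraries of 2 muscles the list of nearest genes is a description only.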

How the data were processed

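RNA from LT and ST muscles of 3 Min pigs was sequenced in 6 directional libraries after rRNA depletion. Reads were cleaned with SOAPnuke, aligned to the pig genome with HISAT2 and assembled with StringTie by the authors, whose deposited values are FPKM for each transcript and library, with replicates not pooled. The StringTie version, the strand setting and the handling of reads that match several places, such as nuclear copies of mitochondrial DNA, are not given in the sources used here.

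FPKM was summed per gene over mRNA transcripts. Genes with FPKM above 0.1 in at least 1 library (19672, among them all 10 mitochondrial ND and COX genes) were compared between muscles on the scale of log2(FPKM + 0.1), by limma 3.58.1 (R 4.3.3) with its trended prior variance and Benjamini-Hochberg adjustment over all genes, and fold changes of low genes are understated on this scale. The model was tested on simulated data. Shares of MT FPKM were compared with 2-sided exact permutation tests, in Python 3.11.15 with scipy 1.17.1. The main model had no block, as the methods of the study name none. The pairing of LT and ST by pig comes from those methods, and residuals of libraries of the same pig correlated at 0.29, 0.261 and 0.292. The average between different pigs was -0.141. Residuals sum to 0 within a muscle, so this average follows from the same-pig values and is no separate check.

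The genes and lists were chosen with earlier results of these data known. Named nuclear genes are, from each pathway list, the called genes (at most 5, by p) or else the 2 genes with the smallest p, and the 5 genes of nearest pattern. Of the genes on the lists, 10 without a symbol in the files were matched by position to RefSeq with a reciprocal overlap of at least 0.5. Alternatives were pseudocounts of 1 and 0.01, no filter and FPKM above 1, quantile normalization, rescaling of FPKM to the nuclear transcripts, the pig as a block, both of these last together (added after seeing the data), no variance trend, other denominators of the shares, MT FPKM set equal, and each library left out.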

Additional observations from a re-analysis of the deposited data

How the results depend on the processing

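With the alternatives other than MT FPKM set equal, all 150 log2 fold changes of the 10 genes were above 0. These are not 150 separate checks. The changed filters, the block and the fit without a variance trend leave a log2 fold change as it was. Rescaling with the block likewise repeats the values of rescaling. With MT FPKM set equal, those of ND1, ND2, ND4, ND4L, ND5, ND6 and COX2 were below 0. The median of the 10 genes, 0.93, became 1.04 with FPKM rescaled to nuclear transcripts (also with the replicate block), 0.77 after quantile normalization, and 0.83 to 1.12 when 1 library was left out. Quantile normalization moved the median of all genes by -0.13. With the pig as a replicate block, 1 of the 10 was called and 4 had an adjusted p under 0.05, and 5 and 6 did when FPKM was rescaled to nuclear transcripts as well. Leaving out 1 library gave 0 to 3 calls, 0 to 3 genes with an adjusted p under 0.05, and 5 to 10 genes with an unadjusted p under 0.05, with the 3 calls without ST replicate 2 and the 5 genes without LT replicate 1. Of the nuclear pathway genes, 34, 13, 30 and 9 were tested in the 4 lists, and 0 were called. With the block 2 were called, against 2.84% of all genes called higher in ST. The number was 5 after rescaling, where 266 of 19672 genes were called higher in ST, and 7 with both (against 4.71%). With 1 library left out it was 0 to 6, with the 6 without ST replicate 2 (against 3.31%). An adjusted p under 0.05 was reached by 1 of them at FPKM above 1, where 138 of 12545 genes reached it higher in ST. With the block 8 reached it, against 3.87% of all genes higher in ST. After rescaling 6 did, where 278 of 19672 genes reached it higher in ST, and 21 did with both (against 7.09%). With 1 library left out, 0 to 13 did. The 13 were without ST replicate 2, where 764 of 19515 genes reached it higher in ST.

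The share differences of ND3, COX2 and COX3 turned direction. COX2 moved from -0.38 to 0.68 percentage points when COX1 was left out of the denominator, and COX3 from 0.084 to -0.022 by FPKM times length. With 1 library left out, the shares of ND3, COX2 and COX3 ranged from -0.19 to 0.32, from -1.06 to 0.073 and from -0.23 to 0.52 percentage points. With MT FPKM set equal, their log2 fold changes ranged from -0.16 to 0.20, from -0.11 to 0.0052 and from -0.026 to 0.056. The cause of these changes was not tested.

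The whole table gave 81 calls higher and 32 calls lower in ST. The numbers were 558 and 241 with the block, 266 and 49 after rescaling to nuclear transcripts, 926 and 243 with both, 32 and 29 after quantile normalization, 18 and 12 without a filter, 15 and 14 without a variance trend, and 646 and 345 without ST replicate 2. Leaving out any other library gave 7 to 12 higher and 5 to 10 lower. FPKM without counts leaves the depth behind each value unknown, and 3 libraries per muscle limit the precision. With 1 library left out, the remaining spread rests on 5 libraries.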
